A study of Mus musculus with 6 samples.

Results

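U1 and U2 are small nuclear RNAs of the spliceosome, the particle that removes introns from pre-mRNA. The rows described here are all rows of the small RNA count table that the authors typed as Rfam RNAs and named as a copy of U1 (181 rows) or of U2 (46 rows), 227 of 61949 rows in all. Many copies share their sequence and hence their reads, and rows with equal counts in all 6 libraries were taken once, which left 154 distinct U1 rows and 42 distinct U2 rows. The libraries were made from extracellular vesicles (EVs), which carry RNA and protein out of cells. 3 libraries came from EVs of primary cortical astrocytes and 3 from EVs of NSCs (neural stem cells), neonatal by their labels, taken from the subventricular zone, both from CD1 mice with no transgene or treatment named in the labels. The astrocytes were grown from dorsal cortices of neonatal pups, shaken to remove microglia and oligodendrocyte lineage cells, and the EVs were pelleted by ultracentrifugation. How the NSCs were cultured and how their EVs were collected is not described for these libraries in the sources used here. The labels do not say that replicates came from separate cultures, and the p-values therefore describe the spread among these 6 libraries, which may be technical.

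In the nucleus U1 pairs through its 5′ end with the 5′ splice site of an intron, and U2 pairs with the branch point, the adenosine that attacks that site. Each RNA is bound by a ring of Sm proteins at a short uridine-rich sequence, the Sm site, and ends in folded stem-loops that protect it. Mice carry many genes and pseudogenes for both RNAs, among them U1a genes and the U1b genes, whose RNA is made mainly early in development.

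Astrocyte EVs held fewer counts of both RNAs than NSC EVs, by 7.1-fold for Rnu1a1, the U1 row with the most counts, and by 13.7-fold for Rnu2-10, the U2 row with the most counts. Without NSC EV replicate 3 the difference was 4.64-fold for Rnu1a1 (adjusted p = 0.0671 by edgeR), and without NSC EV replicate 1 it was 8.09-fold for Rnu2-10 (adjusted p = 0.0292 by edgeR). Neither row passed 0.05 without astrocyte EV replicate 1, astrocyte EV replicate 2 or NSC EV replicate 3. The adjusted p was highest without astrocyte EV replicate 2, at 0.105 for Rnu1a1 and 0.0808 for Rnu2-10 by edgeR. The copies did not behave alike. Among U1 rows with at least 10000 counts, the 12 that hold the 3′ end of Rnu1a1 had log2 fold changes from -5.98 to -2.82. The 21 known to lack it had values from -2.02 to 0.07. Another such row, on chromosome X with 94977 counts and no matched sequence, stood at -3.25. With at least 1000 counts, the 43 rows known to lack it ran from -4.91 to 1.36. Of these, 10 were lower at an adjusted p under 0.05 by edgeR, where the background was 4.24% of all rows tested. This stretch and the U2 stretch below were chosen after the values were seen. The 5 U2 rows with the most counts hold the Sm site of Rnu2-10 with the bases after it, and had log2 fold changes from -4.10 to -3.78. The 6 other U2 rows with at least 10000 counts lack this stretch. All 6 were also lower at an adjusted p under 0.05 by edgeR, against the same background of 4.24%, with values from -4.81 to -1.38. Gm24924 of U1 and Gm23472 of U2 differ from the leading row of their family at 1 base only, which lies in these stretches. Each had far fewer counts than that row in some libraries and nearly as many, or more, in others. Not every copy with 1 mismatch there did so, since Rnu1b6 reached at most 52.3% of the count of Rnu1a1.

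The sequences below are those of U1 copies that hold or lack the 3′ end of Rnu1a1. They were taken from GENCODE vM21 transcripts at the positions of the rows and are written as DNA from 5′ to 3′ on the strand of the row. Capitals mark the last 18 bases, which form part of the 3′-terminal stem-loop. Rnu1a1 is a U1a copy at chr11:87422867-87423030 (plus strand, mm10), Rnu1b1 is a U1b copy at chr3:96359953-96360117 (minus strand), Gm23686 lies at chr3:18177462-18177625 (minus strand) and Gm25704 at chr2:133008487-133008654 (plus strand). These 4 hold the 18 bases. Gm25189, at chr2:117248271-117248434 (plus strand), and Gm23238, at chr19:18732741-18732904 (plus strand), do not. All 6 are annotated as snRNA genes.
Rnu1a1: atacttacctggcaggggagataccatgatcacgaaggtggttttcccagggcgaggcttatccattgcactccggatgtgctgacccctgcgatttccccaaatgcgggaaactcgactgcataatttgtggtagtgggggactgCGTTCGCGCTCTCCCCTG
Rnu1b1: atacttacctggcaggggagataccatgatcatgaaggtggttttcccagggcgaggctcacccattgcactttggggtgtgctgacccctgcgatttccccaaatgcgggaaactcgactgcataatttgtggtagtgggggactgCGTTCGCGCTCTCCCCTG
Gm23686: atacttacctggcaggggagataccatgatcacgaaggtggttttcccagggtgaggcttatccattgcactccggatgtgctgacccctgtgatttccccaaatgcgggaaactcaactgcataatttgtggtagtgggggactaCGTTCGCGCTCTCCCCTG
Gm25704: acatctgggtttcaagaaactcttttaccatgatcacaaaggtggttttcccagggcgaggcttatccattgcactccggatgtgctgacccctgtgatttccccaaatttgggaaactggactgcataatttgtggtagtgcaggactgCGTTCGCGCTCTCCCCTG
Gm25189: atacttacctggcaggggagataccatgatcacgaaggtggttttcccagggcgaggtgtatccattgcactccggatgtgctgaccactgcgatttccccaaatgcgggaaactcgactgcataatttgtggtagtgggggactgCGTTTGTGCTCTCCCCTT
Gm23238: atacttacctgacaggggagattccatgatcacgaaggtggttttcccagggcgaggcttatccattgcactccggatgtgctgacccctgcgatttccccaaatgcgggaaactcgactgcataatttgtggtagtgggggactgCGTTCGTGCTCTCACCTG

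Counted from 1 at the 5′ end of Rnu1a1, Gm25189 differs from it at C58T, T59G, C88A, C151T, C153T and G164T. Gm23238 differs at G12A, A23T, C153T and C160A. Gm23686 differs at C53T, C92T, G117A and G146A, all before the last 18 bases. Gm25704 has a length of 168 bases against 164 for Rnu1a1, has another 5′ end and shares 85.7% of aligned positions with it.

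The U2 copies shown next are those on which the U2 comparison turns, with capitals for bases 93 to 112 of Rnu2-10 or the stretch most like them. Rnu2-10 lies at chr11:101658238-101658428 (plus strand), Gm25202 at chrX:14315401-14315591 (minus strand), Gm23472 at chr1:72236946-72237136 (plus strand) and Gm24763 at chrX:43254046-43254235 (plus strand). The first pair hold the stretch unchanged. Gm23472 differs from Rnu2-10 only at G109C, just after the Sm site, and Gm24763 has 1 mismatch in the stretch.
Rnu2-10: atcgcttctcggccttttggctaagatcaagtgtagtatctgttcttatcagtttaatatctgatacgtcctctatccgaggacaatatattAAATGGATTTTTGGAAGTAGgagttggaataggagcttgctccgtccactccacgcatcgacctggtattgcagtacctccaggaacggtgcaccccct
Gm25202: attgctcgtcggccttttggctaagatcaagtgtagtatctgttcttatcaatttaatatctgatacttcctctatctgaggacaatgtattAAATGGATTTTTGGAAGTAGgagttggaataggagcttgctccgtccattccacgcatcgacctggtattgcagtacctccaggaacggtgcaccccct
Gm23472: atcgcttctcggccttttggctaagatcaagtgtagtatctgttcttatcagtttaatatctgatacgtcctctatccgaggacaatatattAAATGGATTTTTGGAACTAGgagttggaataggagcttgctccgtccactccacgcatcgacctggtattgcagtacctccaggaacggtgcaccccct
Gm24763: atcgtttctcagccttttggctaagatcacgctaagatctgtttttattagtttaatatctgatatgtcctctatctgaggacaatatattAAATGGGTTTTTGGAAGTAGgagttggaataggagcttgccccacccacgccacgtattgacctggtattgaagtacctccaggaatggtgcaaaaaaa

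Of the 227 rows, 218 matched a GENCODE transcript by exact position and strand, 174 of U1 and 44 of U2, and the other 9 were analysed without a sequence. The U1 rows lie on 20 chromosomes and have a median length of 161 bases (101 to 186), and the U2 rows lie on 15 chromosomes with a median of 185 bases (80 to 199). 7 U1 rows have exactly the sequence of Rnu1a1, and their sums over the 6 libraries lay between 298622 and 300175 counts. 4 U2 rows have the sequence of Rnu2-10, with sums between 203644 and 203658. Rows with the same sequence thus had nearly the same counts, and the counts of 1 such row cannot be told apart from those of its twins. Every row had at least 1 count, 46 distinct U1 rows and 6 distinct U2 rows had under 10 counts in all, and 57 and 16 had at least 1000. The letters CTTACCT, in the part of U1 that pairs with the 5′ splice site, are in 66 of the 174 U1 rows with a sequence (37.9%) and in 38 of the 60 with at least 1000 counts. The letters ATTTGTG of the U1 Sm site are in 76 of the 174 (43.7%) and in 45 of these 60. The letters GTAGTA, in the part of U2 that pairs with the branch point, are in 32 of 44 U2 rows (72.7%) and in 14 of the 18 with at least 1000 counts, and ATTTTTG of the U2 Sm site is in 20 of 44 (45.5%) and in 16 of these 18. All 4 were read on the strand of the row only.

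The astrocyte EV libraries held 72068913 to 111276337 counts in rows other than miRNA hairpins and the NSC EV libraries 44218109 to 50585031. RNA fragments of the astrocyte marker genes Gfap and Aldoc were higher in astrocyte EVs (2 of 7 astrocyte genes passed the test). Sums in this paragraph are CPM of non-hairpin counts (counts scaled to library size), without the TMM factors used in the tests. The 7 genes summed to 14.99, 22.3 and 33.0 CPM in astrocyte EVs, against 34.1, 58.3 and 53.7 CPM in NSC EVs. On this scale the sum was lower in every astrocyte EV library. The TMM factor was 0.488 in astrocyte EV replicate 1 and 1.195 in NSC EV replicate 1. With TMM factors the sums of the 7 genes overlapped between EV types, as astrocyte EV replicate 1 then lay above NSC EV replicate 1. Slc1a3 and Slc1a2 had log2 fold changes of -1.15 and -0.80 and did not pass. Of 8 NSC and progenitor genes 6 could be tested and 0 passed by edgeR, 1 was higher and 1 lower at an unadjusted p under 0.05, and DESeq2 called 1, Dlx2, higher in astrocyte EVs. Their sums were 4.68 to 16.98 CPM in astrocyte EVs and 10.4 to 15.9 CPM in NSC EVs. 3 of 3 miRNAs of red blood cells were higher in astrocyte EVs, at a summed 47.6 to 291 CPM in astrocyte EVs, against 3.74 to 10.2 CPM in NSC EVs, with miR-451a at 0 in all 3 NSC EV libraries. Of 3 fibroblast genes Col1a2 was higher in astrocyte EVs, while Col1a1 and Col3a1, with log2 fold changes of 0.88 and -0.83, did not pass. The 3 summed to 9.13 to 12.6 CPM in astrocyte EVs and 6.39 to 9.48 CPM in NSC EVs. Of 3 microglial genes 0 passed by edgeR or DESeq2 and 0 had an unadjusted p under 0.05, with sums of 3.32 to 8.58 CPM in astrocyte EVs and 5.85 to 13.7 CPM in NSC EVs. The part of these markers in the U1 and U2 results was not tested.

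Summed over distinct rows, U1 made 0.166%, 0.209% and 0.675% of non-hairpin counts in the astrocyte EV libraries, and 1.92%, 2.19% and 3.62% in the NSC EV libraries. The mean stood at 0.350% ± 0.282 in astrocyte EVs and 2.57% ± 0.914 in NSC EVs (SD, n = 3 each). U2 made 0.0343%, 0.0378% and 0.0976% in astrocyte EVs, and 1.33%, 0.519% and 0.468% in NSC EVs. Its mean stood at 0.0566% ± 0.0356 in astrocyte EVs and 0.773% ± 0.484 in NSC EVs. The groups did not overlap for either RNA. U1 was highest in NSC EV replicate 3 and U2 in NSC EV replicate 1, and among astrocyte EVs replicate 3 was highest for both. A read may stand in several of the rows summed, so these values compare libraries and are not shares of reads. The means differed 7.36-fold for U1 and 13.7-fold for U2. With tRNA and rRNA rows left out of the total, they differed 5.04-fold and 9.06-fold, and the groups still did not overlap. Less RNA per vesicle, fewer vesicles with the RNA and more of other RNAs cannot be told apart in bulk EV libraries.

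**Figure D1:**
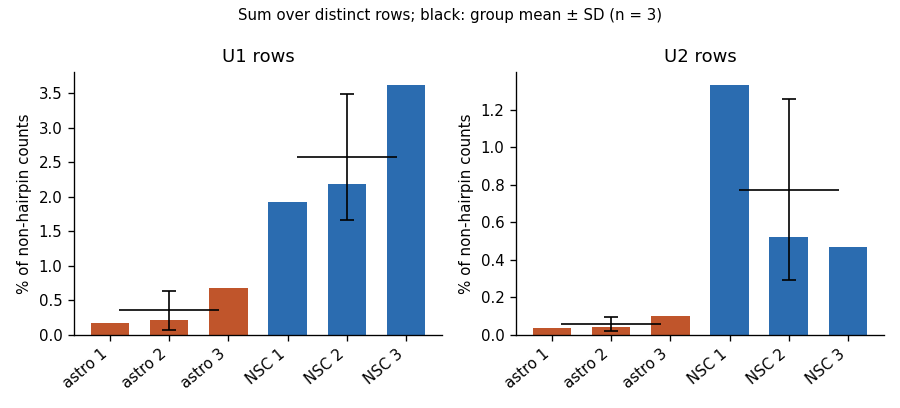
U1 (left) and U2 (right) counts summed over distinct rows, as a percentage of non-hairpin counts, in each astrocyte EV (astro) and NSC EV library, with the group mean and SD in black (n = 3). All 3 astrocyte EV libraries lie below all 3 NSC EV libraries, by means of 0.350% against 2.57% for U1 and 0.0566% against 0.773% for U2.

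Each row was tested with edgeR's quasi-likelihood test on the whole table of 41308 rows that passed the low-count filter, with Benjamini-Hochberg adjustment. 76 distinct U1 rows and 30 distinct U2 rows could be tested. 28 U1 rows and 14 U2 rows were lower in astrocyte EVs at an adjusted p under 0.05, against a background of 4.24% of all rows tested. By edgeR 0 U1 and 0 U2 rows were higher, where the background was 5.54%, with 0 U1 rows and 1 U2 row (Gm24402) higher at an unadjusted p under 0.05. DESeq2 also called 0 higher in both families, where its background was 10.2%, and called 46 U1 and 16 U2 rows lower, where it was 8.93%. The median log2 fold change, astrocyte EV minus NSC EV, was -1.83 over the U1 rows and -1.68 over the U2 rows, against -0.04 over all rows tested. In 40 of 76 U1 rows and 16 of 30 U2 rows every astrocyte EV library was below every NSC EV library, as in 16.7% of all rows. Rows of 1 family share reads, so these counts are not counts of independent genes. Without astrocyte EV replicate 1, astrocyte EV replicate 2 or NSC EV replicate 3 the test called 0 U1 and 0 U2 rows at an adjusted p under 0.05, with 38 to 49 U1 and 15 to 17 U2 rows lower at an unadjusted p under 0.05. The loss was not particular to these RNAs. Over all rows 0 were called without either of these astrocyte EV libraries, and 4 higher and 14 lower rows without NSC EV replicate 3.

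Rnu1a1 had 217, 156 and 235 TMM-normalised CPM (counts scaled to library size) in astrocyte EVs, against 759, 1105 and 2455 CPM in NSC EVs. NSC EV replicate 3 was the highest, and the lowest NSC EV library lay above every astrocyte EV library. The log2 fold change was -2.83 ± 0.56 (SE, n = 3 each, adjusted p = 0.0250 by edgeR). The U1b row Rnu1b1 followed it closely, with 188, 138 and 221 CPM in astrocyte EVs and 729, 1088 and 2403 CPM in NSC EVs. Rnu1b1 had 86.8%, 88.4% and 94.0% of the count of Rnu1a1 in astrocyte EVs, and 96.2%, 98.4% and 97.9% in NSC EVs. The 6 U1 rows with the most counts, Rnu1a1 and 5 others on chromosomes 11 and 12 (Gm23804, Gm22634, Gm25679, Gm22513 and Gm22068), had log2 fold changes from -2.87 to -2.82.

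Rnu2-10 had 70.3, 47.0 and 113 CPM in astrocyte EVs, against 1906, 564 and 684 CPM in NSC EVs. Here NSC EV replicate 1 was the highest, and the groups did not overlap. The log2 fold change was -3.78 ± 0.65 (SE, n = 3 each, adjusted p = 0.0190 by edgeR). Gm25202 on chromosome X, which differs from Rnu2-10 at 8 bases outside the capitals, had 46.0, 31.9 and 103 CPM in astrocyte EVs and 1893, 559 and 665 CPM in NSC EVs. Its log2 fold change of -4.10 ± 0.72 was the third furthest from 0 among the U2 rows called (adjusted p = 0.0198 by edgeR). The 5 most abundant U2 rows (Rnu2-10, Gm23849, Gm26316, Gm25813 and Gm25202) are the 5 distinct rows that hold bases 93 to 112 unchanged, and the sixth is Gm23472.

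**Figure D2:**
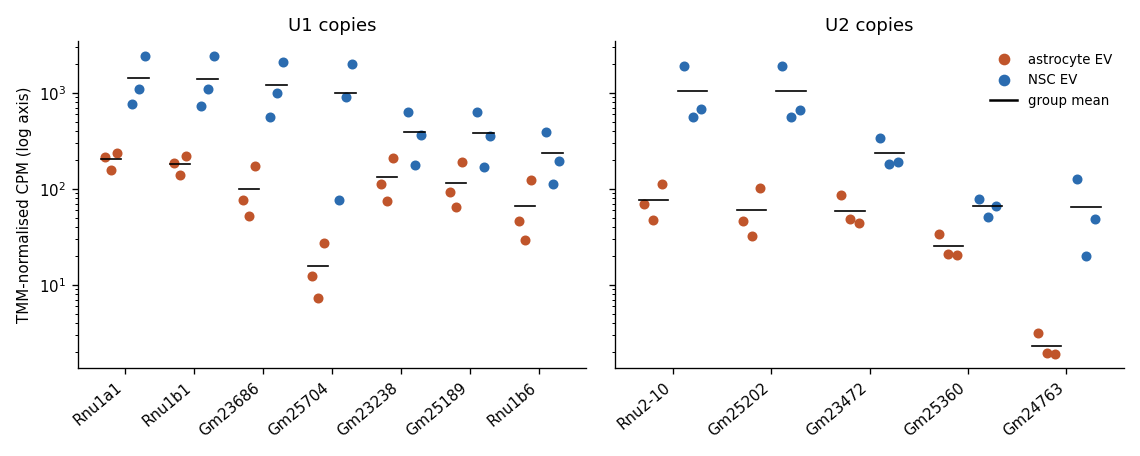
TMM-normalised CPM (log axis) of named U1 copies (left) and U2 copies (right), with a point per library, astrocyte EVs at the left and NSC EVs at the right of each name, and the group mean as a line (n = 3). Rnu1a1, Rnu1b1, Gm23686 and Gm25704 do not overlap between EV types, while Gm23238, Gm25189 and Rnu1b6 do. Every U2 copy shown is lower in all 3 astrocyte EV libraries.

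The copies that carry the U1 difference were found by setting each row beside Rnu1a1 in the same library, and the 18-base stretch was chosen after these values were seen. 12 distinct U1 rows hold the stretch and all 12 were called lower in astrocyte EVs, with log2 fold changes from -5.98 to -2.82. They gave 80.2% of the summed difference between EV types over distinct U1 rows in CPM of non-hairpin counts. 5 of the 12 have the sequence of Rnu1a1, and a read may stand in several of them. Such a percentage therefore depends on how many nearly identical copies are summed. Of the 135 distinct rows known to lack it, 61 could be tested and 15 were called lower, where the background was 4.24%. Together the 135 gave 17.5% of the difference. Summed, the 12 rows had 1053, 1352 and 3176 CPM in astrocyte EVs, against 9729, 18364 and 31026 CPM in NSC EVs. The rows without the stretch had 585, 721 and 3444 CPM in astrocyte EVs, against 9033, 3016 and 4403 CPM in NSC EVs. Astrocyte EV replicate 3 lay above NSC EV replicate 2 in the rows without the stretch, so there the groups overlapped.

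Gm25189 was among these overlapping rows, with 91.8, 64.6 and 189 CPM in astrocyte EVs, against 628, 169 and 352 CPM in NSC EVs. Its log2 fold change of -1.73 ± 0.60 did not pass the test (adjusted p = 0.1004 by edgeR). Gm23238 had 112, 74.9 and 212 CPM in astrocyte EVs and 627, 176 and 362 CPM in NSC EVs (adjusted p = 0.123 by edgeR). Rnu1b6, a U1b copy with 1 mismatch in the last 18 bases of Rnu1a1, had 46.5, 29.2 and 123 CPM in astrocyte EVs and 396, 113 and 198 CPM in NSC EVs (adjusted p = 0.111 by edgeR). In each of them astrocyte EV replicate 3 was above NSC EV replicate 2. Of the 21 distinct rows without the stretch that had at least 10000 counts, 0 were called by edgeR and 18 overlapped between EV types. Over all rows tested edgeR called 4.24% lower and 5.54% higher. Every astrocyte EV library was below every NSC EV library in 16.7% of all rows, and above in 17.2%. The lack of calls depends on the tool, since 15 of the 21 had an unadjusted p under 0.05 and DESeq2 called 12 of them, where its background was 8.93% lower. On simulated data edgeR called only 6.25% of rows changed 4-fold, so rows not called may still differ.

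The libraries differed in how the counts divided between these copies. As a share of Rnu1a1, the highest row without the stretch reached 56.1%, 53.1% and 92.5% in astrocyte EVs, and 85.2%, 16.5% and 15.4% in NSC EVs. Over the 21 rows with at least 10000 counts, the median share was 21.4%, 18.7% and 52.3% in astrocyte EVs, and 52.2%, 10.2% and 8.05% in NSC EVs. These shares were thus lowest in NSC EV replicates 2 and 3 and highest in astrocyte EV replicate 3 and NSC EV replicate 1, although in CPM the rows without the stretch summed higher in NSC EV replicates 2 and 3 than in astrocyte EV replicates 1 and 2. Gm25704, which keeps the 3′ end but not the 5′ end, showed the reverse. It had 5.71%, 4.72% and 11.7% of the count of Rnu1a1 in astrocyte EVs, and 10.2%, 82.7% and 81.3% in NSC EVs. In CPM it stood at 12.4, 7.37 and 27.5 in astrocyte EVs, against 77.4, 913 and 1997 in NSC EVs, with a log2 fold change of -5.98 ± 1.19 (adjusted p = 0.0250 by edgeR), the furthest from 0 among U1 rows. NSC EV replicate 1 was much nearer to the astrocyte EV libraries than to the other two NSC EV libraries in this row. Gm23686, within Cyp7b1, held 35.3%, 33.5% and 73.0% of Rnu1a1 in astrocyte EVs and 74.7%, 90.0% and 85.2% in NSC EVs.

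**Figure D3:**
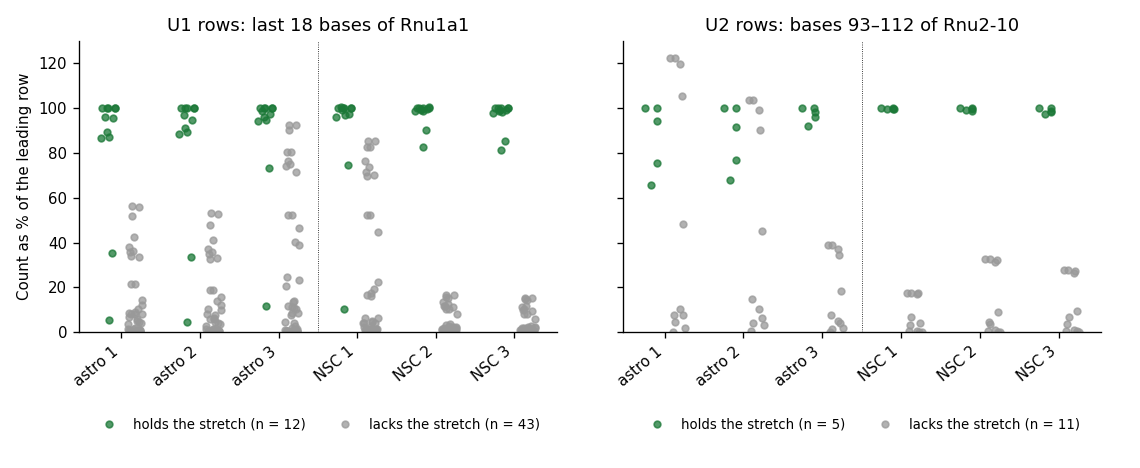
Count of each distinct row with at least 1000 counts as a percentage of the leading row of its family in the same library, for U1 (left, leading row Rnu1a1) and U2 (right, leading row Rnu2-10), with astrocyte EV (astro) libraries left of the dotted line. Green rows hold the named stretch (12 U1 and 5 U2 rows) and grey rows lack it (43 and 11). Grey U1 rows reach at most 16.5% and 15.4% in NSC EV replicates 2 and 3, and grey U2 rows reach 122% and 104% in astrocyte EV replicates 1 and 2.

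A copy on chromosome 18, Gm24924, differs from Rnu1a1 at 1 base, which lies in the last 18. It had 5086, 5188 and 30668 counts in astrocyte EVs, against 36848, 11430 and 20872 counts in NSC EVs. Rnu1a1 exceeded it by 3973, 4576 and 2503 counts in astrocyte EVs, and by 6413, 58086 and 114532 counts in NSC EVs. In CPM of non-hairpin counts this excess was 46.4, 63.5 and 22.5 in astrocyte EVs, against 134, 1314 and 2264 in NSC EVs, and the groups did not overlap. Gm24924 itself stood at 59.4, 72.0 and 276 CPM in astrocyte EVs, against 771, 258 and 413 in NSC EVs, where astrocyte EV replicate 3 lay above NSC EV replicate 2. The counts that set the leading copy above its neighbour at this base were therefore lowest in astrocyte EVs and, within NSC EVs, lay mostly in replicates 2 and 3. This pair was chosen after its values were seen, and the difference was not tested.

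In U2 the libraries ranked differently. The copy with 1 base changed had its largest share of the leading row in astrocyte EV replicates 1 and 2. Gm23472, which has C at the position of G109C, had 86.0, 48.7 and 43.8 CPM in astrocyte EVs, against 335, 183 and 191 CPM in NSC EVs, with a log2 fold change of -1.99 ± 0.44 (adjusted p = 0.0321 by edgeR). In counts it had 3591, 3045 and 6179 in astrocyte EVs, against 19123, 11532 and 10514 in NSC EVs. Rnu2-10 had 2934, 2942 and 15863 counts in astrocyte EVs, against 108697, 35498 and 37724 in NSC EVs. Gm23472 thus had more counts than Rnu2-10 in astrocyte EV replicates 1 and 2, at 122% and 104% of it, and fewer in astrocyte EV replicate 3, at 39.0%. In NSC EVs it had 17.6%, 32.5% and 27.9% of the count of Rnu2-10.

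In CPM of non-hairpin counts Rnu2-10 exceeded Gm23472 by -7.67, -1.43 and 87.0 in astrocyte EVs, and by 1875, 542 and 538 in NSC EVs. Gm23472 itself stood at 41.9, 42.3 and 55.5 CPM in astrocyte EVs, against 400, 261 and 208 in NSC EVs. Both quantities separated the EV types, and the excess separated them further. Gm23444, Gm24497, Gm25939 and Gm25360 also carry G109C and followed Gm23472, with log2 fold changes from -2.18 to -1.38. Gm25360 had 34.1, 21.2 and 20.6 CPM in astrocyte EVs and 79.4, 51.1 and 66.4 CPM in NSC EVs, and its adjusted p of 0.0478 by edgeR was the closest below the threshold among U2 rows. The 5 distinct rows that hold bases 93 to 112 unchanged, a stretch chosen after the values were seen, gave 83.8% of the summed U2 difference, and the 35 known to lack it gave 16.2%. A read may stand in several of these rows, so both percentages depend on how many nearly identical copies are summed.

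Gm24763 had the U2 log2 fold change furthest from 0, at -4.81 ± 0.72 (adjusted p = 0.0156 by edgeR). It stood at 3.11, 1.93 and 1.92 CPM in astrocyte EVs, against 127, 20.04 and 48.0 CPM in NSC EVs. NSC EV replicate 1 was highest, as for Rnu2-10. Gm22423 on chromosome 11 had 7, 12 and 51 counts in astrocyte EVs, against 482, 259 and 231 counts in NSC EVs, and its log2 fold change was -4.47 ± 0.50 (adjusted p = 0.0126 by edgeR). Gm22073 on chromosome 3 came closest to the threshold from above, at -2.10 ± 0.65 (adjusted p = 0.0764 by edgeR).

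Some U1 copies with few counts also differed. Gm23737, on chromosome 15 within Mov10l1, had 11, 28 and 15 counts in astrocyte EVs, against 92, 718 and 606 counts in NSC EVs, with a log2 fold change of -4.91 ± 0.87 (adjusted p = 0.0200 by edgeR). Its counts were highest in NSC EV replicates 2 and 3, as for Gm25704. Gm23100 on chromosome 7 had 4, 9 and 28 counts in astrocyte EVs, against 266, 84 and 179 counts in NSC EVs, with a log2 fold change of -4.32 ± 0.57 (adjusted p = 0.0156 by edgeR). On either side of the threshold, Gm25650 on chromosome 10 reached an adjusted p of 0.0478 and Gm25115 on chromosome 14 an adjusted p of 0.0521 by edgeR. Where a distinct row had 10 or more counts in every library, log2 fold changes ran from -5.98 to 1.36 in 60 U1 rows and from -4.81 to 0.88 in 18 U2 rows.

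**Figure D4:**
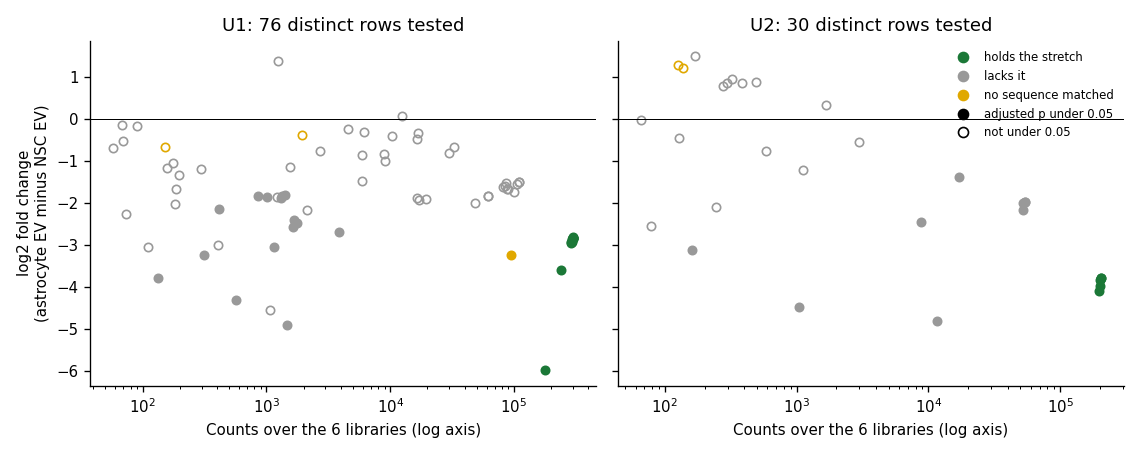
Log2 fold change (astrocyte EV minus NSC EV) of each distinct row tested against its counts over the 6 libraries (log axis), for U1 (left, 76 rows) and U2 (right, 30 rows). Filled points passed the test at an adjusted p under 0.05. Green points hold the named stretch, grey points lack it and yellow points had no matched sequence, and 74 U1 rows and 21 U2 rows lie below 0.

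2 of the 76 U1 rows and 9 of the 30 U2 rows tested had log2 fold changes above 0, up to 1.36 in U1 and 1.48 in U2, and 0 of them passed the test by edgeR. The 9 U2 rows had 126 to 1672 counts each. Of the U1 rows, Gm24046 on chromosome 3 had 608, 789 and 6882 counts in astrocyte EVs, against 1892, 858 and 1403 counts in NSC EVs, with a log2 fold change of 0.07 ± 0.58. Gm24145, within Zc3h7a on chromosome 16, had 32, 38 and 989 counts in astrocyte EVs, against 123, 32 and 35 counts in NSC EVs, with a log2 fold change of 1.36 ± 0.97. Astrocyte EV replicate 3 was the highest library in both, and without it their log2 fold changes were -0.82 and -0.67. Their adjusted p were 0.950 and 0.390 by edgeR. Both were picked once their values had been seen.

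The ratio of Rnu2-10 to Rnu1a1 compares both RNAs without a library size. It stood at 0.324, 0.301 and 0.478 in astrocyte EVs and 2.51, 0.511 and 0.279 in NSC EVs. The groups overlapped, with NSC EV replicate 1 far above the others and NSC EV replicate 3 the lowest (log2 difference -0.98, exact two-sided permutation p = 0.6, n = 3 each). NSC EV replicate 1 was thus the library with the most U2 and, within its group, the least U1.

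U4, U5 and U6 join U1 and U2 in the major spliceosome, with U4 holding U6 inactive and U5 aligning the exons. Rnu1a1 had 76.1, 83.5 and 90.4 times the count of the leading U4 row in astrocyte EVs, against 367, 1022 and 1934 times in NSC EVs. Relative to the leading U5 row it stood at 14.7, 13.7 and 58.5 in astrocyte EVs, against 75.6, 125 and 315 in NSC EVs. Relative to the leading U6 row it stood at 87.1, 85.6 and 220 in astrocyte EVs, against 801, 675 and 1010 in NSC EVs. For Rnu2-10 the ratio to U4 stood at 24.7, 25.1 and 43.2 in astrocyte EVs, against 921, 522 and 539 in NSC EVs. None of the 6 ratios overlapped between EV types, and the log2 differences ran from -4.41 to -2.66. Each gave an exact two-sided permutation p of 0.1 (0.1 after Benjamini-Hochberg adjustment over the 6), the smallest that 3 libraries against 3 allow, so none could pass 0.05.

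**Figure D5:**
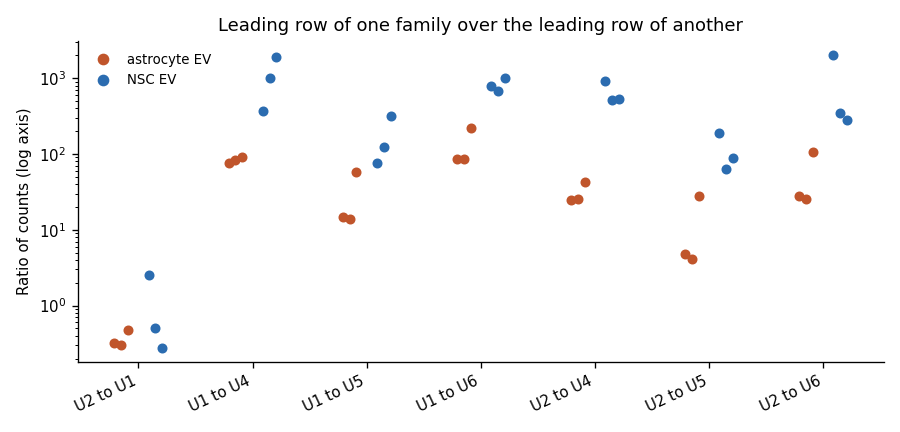
Ratio of counts (log axis) between the leading rows of 2 families in each library, with astrocyte EVs at the left and NSC EVs at the right of each name. All 6 ratios of U1 or U2 to U4, U5 or U6 are lower in every astrocyte EV library, while the U2 to U1 ratio overlaps between EV types.

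The other spliceosomal RNAs varied by family. By edgeR 0 of 8 U4 rows, 0 of 8 U5 rows and 0 of 4 U12 rows tested passed in either direction, where 0, 1 and 1 had an unadjusted p under 0.05 and DESeq2 called 0 in each. 4 of 198 U6 rows were lower in astrocyte EVs by edgeR, against the background of 4.24%, and 31 by DESeq2, against 8.93%. Summed over distinct rows in CPM of non-hairpin counts, U5 stood at 24.8, 29.6 and 25.6 in astrocyte EVs, against 45.5, 43.4 and 36.0 in NSC EVs. U6 stood at 96.2, 81.7 and 78.4 CPM in astrocyte EVs and 105, 258 and 220 CPM in NSC EVs, and U12 at 9.08, 8.37 and 12.4 CPM in astrocyte EVs and 49.1, 22.0 and 21.5 CPM in NSC EVs. On this scale, without the TMM factors used in the tests, these 3 sums were lower in every astrocyte EV library. U4 overlapped, at 8.35 to 19.5 CPM in astrocyte EVs and 4.82 to 15.4 CPM in NSC EVs. With TMM factors the leading U5, U6 and U12 rows each overlapped between EV types. The leading U5 row then had 14.8, 11.4 and 4.02 CPM in astrocyte EVs and 10.03, 8.84 and 7.80 CPM in NSC EVs. Median log2 fold changes of the tested rows were 0.04 for U5, -0.43 for U6 and -0.33 for U12. All 3 U11 rows tested were lower. U11, which recognises the 5′ splice site of the rare minor introns, had 102, 147 and 263 counts on its leading row in astrocyte EVs, against 1819, 524 and 1057 counts in NSC EVs (log2 fold change -3.16 ± 0.51, adjusted p = 0.0169 by edgeR). The leading row of U12, its partner at the branch point, had 394, 319 and 635 counts in astrocyte EVs and 1144, 472 and 549 counts in NSC EVs (log2 fold change -0.98 ± 0.47, adjusted p = 0.204 by edgeR). 1 U6atac row could be tested and was lower, with 0 counts in every astrocyte EV library, against 9, 36 and 17 counts in NSC EVs. The 222 rows tested over these families had a median log2 fold change of -0.39.

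In CPM of non-hairpin counts U3, 7SK and Malat1 overlapped between EV types. U3, which guides ribosomal RNA processing, stood at 337, 273 and 239 CPM of non-hairpin counts in astrocyte EVs, against 284, 387 and 440 CPM in NSC EVs. 7SK, which holds back a transcription elongation factor, stood at 17.2, 16.8 and 37.0 CPM in astrocyte EVs, against 41.1, 33.9 and 25.1 CPM in NSC EVs. Malat1, a nuclear long RNA, stood at 1.72, 1.83 and 2.23 CPM in astrocyte EVs and 2.28, 0.950 and 1.502 CPM in NSC EVs, and Neat1 was under 1 CPM in every library.

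RNA fragments of the genes for spliceosome proteins were few. Of the 3 U1 proteins (Snrnp70, Snrpa and Snrpc) 0 passed by edgeR or DESeq2, and 0 had an unadjusted p under 0.05. Snrnp70, which binds the first stem-loop of U1, had 2.49, 2.94 and 6.06 CPM in astrocyte EVs and 1.47, 1.84 and 2.76 CPM in NSC EVs (adjusted p = 0.201 by edgeR). Of 11 U2 protein genes with a row, only Sf3b4 passed the test, higher in astrocyte EVs at 49, 74 and 452 counts, against 35, 28 and 17 counts in NSC EVs (log2 fold change 2.03 ± 0.52, adjusted p = 0.0468 by edgeR). The U2 protein genes with the most counts, Sf3b1, Sf3b3, Sf3a1 and Sf3b2, had log2 fold changes of 0.30, 1.10, 0.76 and -0.21 and did not pass. Of 7 Sm protein genes Snrpe was higher in astrocyte EVs (log2 fold change 1.80) and Snrpd1 lower (-1.94). Snrpb (log2 fold change -1.55, adjusted p = 0.0831 by edgeR), Snrpd3 (-0.43) and Snrpd2 (-0.40) did not pass. Of 16 genes for snRNA transcription and assembly that could be tested, Ints9, a subunit of the Integrator complex that cuts the 3′ end of snRNA precursors, was higher (log2 fold change 1.56). Snapc3, Gemin5 and Ints4 had more counts and did not pass, with log2 fold changes of 0.47, -0.99 and 0.10. DESeq2 called 1 U2 protein gene higher, 1 Sm gene higher and 2 lower, and 1 assembly gene higher and 1 lower. Over all rows tested edgeR called 5.54% higher and 4.24% lower, and DESeq2 10.2% higher and 8.93% lower. The medians were 0.66, 0.76, -0.62 and 0.25 for the U1, U2, Sm and assembly lists, against -0.04 over all rows.

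Rows of host genes repeated the reads of U1 copies that lie inside them. 61 of the 181 U1 rows and 6 of the 46 U2 rows lie within a protein-coding gene on the same strand. Over the 6 libraries Gm23686 gave 98.8% of the counts of the row of Cyp7b1, an oxysterol hydroxylase gene. The Cyp7b1 row had 3611, 3895 and 25112 counts in astrocyte EVs, against 32682, 62961 and 115709 counts in NSC EVs, and was called lower in astrocyte EVs (log2 fold change -3.49 ± 0.67, adjusted p = 0.0235 by edgeR). In the same way Gm24924 gave 97.0% of the counts of Ss18, and Gm26110, a U1 copy on chromosome 1, gave 99.8% of those of Fcgr4. Rnu1a1 and its twin Gm22068 gave 43.4% and 43.2% of the counts of the row of Tex14. Of 14 rows of genes or long non-coding RNAs, antisense rows included, with over 50% of their counts on 1 U1 or U2 copy, 2 were called, both lower in astrocyte EVs, where the background was 4.24%. The other one was the antisense row of 1600010M07Rik, with 78.1% of its counts on Gm23100 (log2 fold change -2.59 ± 0.65, adjusted p = 0.0441 by edgeR). The counts of such rows lie mostly on a spliceosomal RNA copy.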

How the data were processed

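Small RNA libraries of EVs from primary mouse cortical astrocytes and from NSCs (3 each) were compared. The authors deposited whole-number counts per annotated row without normalization. Bowtie, Bowtie2, bedtools, SAMtools, DESeq, cutadapt and FastQC, and the mm10 build, are listed in the submitters' processing notes, with no versions. The counting of reads that match several copies and the use of strand are not given in the sources used here. Nor is it settled which library kit was used, since the paper and the series record differ. 2 further tables hold the authors' group means after size factors, fold changes and adjusted p-values, and were not used. All 6 count columns were matched to a library.

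Replicates were compared by chi-square, and the smallest value per degree of freedom was 91.7, so no library was a repeat of another. The 788 hairpin rows, which repeat mature miRNA reads, were left out. The remaining 61161 rows were fitted in edgeR 4.0.16 (R 4.3.3; TMM, default low-count filter, quasi-likelihood test, group as the only term, Benjamini-Hochberg adjustment over 41308 rows, calls at an adjusted p under 0.05). On simulated data the fit called 0% of rows changed 2-fold, 6.25% changed 4-fold, 75% changed 8-fold and 96% changed 16-fold. A row that did not pass may therefore still differ. The common dispersion was 0.201. SE of a fold change is its size over the root of the F statistic. DESeq2 1.42.0 was an alternative, with other size factors and library sizes, other filters, identical rows taken once, a 2-fold threshold, a replicate block and each library left out. No intervals or limits from counting were used, since counts on several copies are not independent. Sequences came from GENCODE vM21 (the same assembly), aligned with Biopython 1.88, and other steps used Python 3.11.15, pandas 2.3.3, scipy 1.17.1 and matplotlib 3.10.9.

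The U1 and U2 rows, the gene lists and the tests were chosen with earlier results of these data known. Named in each family were the 6 rows with the most counts, the 3 called rows of largest fold change without overlap, and the rows nearest the threshold on either side, and up to 4 genes of each list by counts. Rnu1b1, Rnu1b6, Gm23686, Gm24924, Gm25189, Gm23238, Gm23444, Gm24497, Gm25939, Gm24402, Gm26110, Gm24046 and Gm24145 are outside it and were picked once their values had been seen, as were both sequence stretches. Snrpn and Sf3b6 had no row used here, and Ints11 only an antisense row.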

Additional observations from a re-analysis of the deposited data

How the results depend on the processing

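Of 544 refitted values of 34 named U1 and U2 rows, 539 kept their direction. The 5 that did not came from the U1 rows above 0, neither of which was called: Gm24046, at 0.07, moved to -0.12 without normalization factors and with a replicate block, -0.19 without NSC EV replicate 2 and -0.82 without astrocyte EV replicate 3 (-0.82 to 0.39 with a library left out), and Gm24145, at 1.36, to -0.67 without astrocyte EV replicate 3 (-0.67 to 2.32). The number of rows called did not hold, in these families or over all rows. DESeq2 called 46 U1 rows lower in astrocyte EVs, and a test against a 2-fold change called 3 of 76 U1 and 2 of 30 U2 rows. Over all 41308 rows tested these 2 fits called 3687 and 194 lower, against 1750 in the main fit. Replicate numbers did not pair the libraries, since deviations of same-numbered libraries correlated at -0.048, -0.0039 and -0.118, and a fit with a replicate block called 13 U1 and 7 U2 rows. That fit called 577 of all 41308 rows lower. Leaving out each library in turn gave 0 to 35 U1 rows and 0 to 13 U2 rows lower: 0 of both without astrocyte EV replicate 1, astrocyte EV replicate 2 or NSC EV replicate 3, 35 U1 rows without astrocyte EV replicate 3 and 8 U2 rows without NSC EV replicate 1. Over all rows 1223 of 41650 were lower without astrocyte EV replicate 3, and 1572 of 43565 without NSC EV replicate 1. The higher rows ranged from 0 to 1 for U1. The 1 U1 row called higher, with at least 10 counts in 3 libraries, with no low-count filter or without astrocyte EV replicate 3, was Gm23753, with 110, 52 and 13 counts in astrocyte EVs and 4, 0 and 1 counts in NSC EVs. In these 3 fits 2288 of 41569, 2999 of 61161 and 2786 of 41650 rows were higher. The log2 ratio of the mean U1 share, -2.88, ranged from -3.78 to -2.54 with a library left out and was furthest from 0 without astrocyte EV replicate 3. Without normalization factors the median of all rows moved to -0.54, with -2.24 for U1 and -2.15 for U2, and with library sizes from mature miRNAs it moved to 0.20, with -1.38 and -1.22. The cause of these changes was not tested. Lists of other spliceosome genes were refitted under the same settings, an alternative chosen after seeing the data. DESeq2 called 35 of the 222 other spliceosomal RNA rows tested lower, where its background was 8.93%. The main edgeR fit called 8 of them lower, where the background was 4.24%. Counts shared between copies limit every value to groups of copies, and 3 libraries per EV type limit the ratios to a p of 0.1.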
